A study of Mus musculus with 4 samples.

Results

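*Prl2c2*, *Prl2c3* and *Prl2c5* are the mouse proliferin genes, and all 3 were found by symbol among the 32285 genes counted. They were followed across 28262 cells, the barcodes with 5000 to 75000 UMIs (unique molecular identifiers, each standing for 1 captured RNA molecule), 200 to 7500 genes and under 10% mitochondrial UMIs. The genes were chosen because earlier results of these data had shown them to be high in DFAT cells, so their levels are given as a description and without a test. Proliferins are secreted glycoproteins of the prolactin family, best known from the giant cells of the placenta, where they act on blood vessel growth. The first of them was cloned as a transcript induced by serum in growing fibroblast lines, and its promoter became a textbook target of the transcription factor AP-1. The proteins carry mannose 6-phosphate and bind the receptor for it, IGF2R.

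The cells came from chow-fed C57BL/6J male mice. DFAT cells are de-differentiated fat cells, grown out of floating mature adipocytes in ceiling culture, and ASPCs are adipose stem and progenitor cells, here the stromal vascular fraction expanded in primary culture. Both were taken from inguinal (iWAT) and epididymal (eWAT) white fat, and 1 library was made of each: iWAT_DFAT with 7629 cells, eWAT_DFAT with 6464, iWAT_ASPC with 7424 and eWAT_ASPC with 6745. All were treated with trypsin, stained with 7-AAD for dead cells, sorted and run with 10x Genomics 3′ chemistry. With 1 library per group no test across samples was possible, and every interval below is a 95% interval that covers counting error only. The cells held a median of 22111 to 27617 UMIs. UMIs of 3 or more out of 8 stromal markers were carried by 93.5% to 99.1% of the cells per library, and each pair of libraries shared 13 to 20 cell barcodes.

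The 3 genes lie on chromosome 13 (GRCm38, GENCODE vM21) and are close copies of each other. *Prl2c3* (ENSMUSG00000056457) spans 12790816 to 12800079 on the minus strand, *Prl2c2* (ENSMUSG00000079092) 12996125 to 13005383 on the minus strand, and *Prl2c5* (ENSMUSG00000055360) 13182715 to 13191923 on the plus strand. Gaps of 196045 and 177331 bases separate them. Each main transcript has 5 exons, and the lengths of 842 bases for *Prl2c2*, 857 for *Prl2c3* and 844 for *Prl2c5* are close to each other.

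The coding sequences of *Prl2c2* and *Prl2c3*, 675 bases each, differ at 3 positions. Counted from 1 at the first base of the start codon, with the base of *Prl2c2* first, these are T14C, C200A and T319G, and the 356 bases after the last of them are identical. *Prl2c5* differs from *Prl2c2* at 26 aligned positions, 6 of which are a gap. Coding positions 191 to 240 are shown because they hold one of the 3 bases that tell *Prl2c2* from *Prl2c3*, with the bases that differ between any of the copies in capitals:
Prl2c2: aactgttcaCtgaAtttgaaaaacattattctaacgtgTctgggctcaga
Prl2c3: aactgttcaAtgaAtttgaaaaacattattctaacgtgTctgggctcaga
Prl2c5: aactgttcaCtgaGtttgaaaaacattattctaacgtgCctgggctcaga

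Positions 301 to 380 hold the last base at which *Prl2c2* and *Prl2c3* differ and several that set *Prl2c5* apart, again with differing bases in capitals:
Prl2c2: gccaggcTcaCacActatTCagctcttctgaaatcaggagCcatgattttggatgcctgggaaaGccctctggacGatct
Prl2c3: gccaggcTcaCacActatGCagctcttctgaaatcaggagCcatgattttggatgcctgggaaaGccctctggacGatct
Prl2c5: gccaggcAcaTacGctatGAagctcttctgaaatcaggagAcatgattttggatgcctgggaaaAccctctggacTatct

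These sequences limit what the counts can tell. Of the 351 stretches of 150 bases, the read length, in the last 500 bases of the *Prl2c2* transcript, 317 also occur in another *Prl2c* transcript, and the number is the same for *Prl2c3*. None of the 351 stretches of *Prl2c5* does. A read from the 3′ end therefore seldom tells *Prl2c2* from *Prl2c3*, whereas a full-length read of *Prl2c5* differs from the other annotated *Prl2c* transcripts. Of its stretches of 90 bases there, 55 of 411 are shared. Introns and the rest of the genome were not searched. How the counting split or dropped shared reads was not tested, so the levels of *Prl2c2* and *Prl2c3* are uncertain one by one, and their sum with *Prl2c5*, called summed proliferins below, is a lower limit where shared reads were left out.

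The level of each gene was taken as the UMIs over all cells of a library, scaled to 1000000 (CPM). *Prl2c2* stood at 184 CPM (interval 182 to 186) in iWAT_DFAT and 332 (330 to 335) in eWAT_DFAT, against 5.06 (4.75 to 5.38) in iWAT_ASPC and 1.27 (1.11 to 1.43) in eWAT_ASPC. *Prl2c3* followed with 96.6, 261, 2.84 and 0.947 CPM, with the libraries taken in that order. *Prl2c5* was counted at 2.31 CPM in iWAT_DFAT and 12.3 in eWAT_DFAT, and with 7 UMIs in iWAT_ASPC and 2 in eWAT_ASPC. The order of the libraries was thus the same for all 3 genes, and the intervals of neighbouring libraries overlapped only for *Prl2c5* between the ASPC libraries.

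**Figure D1:**
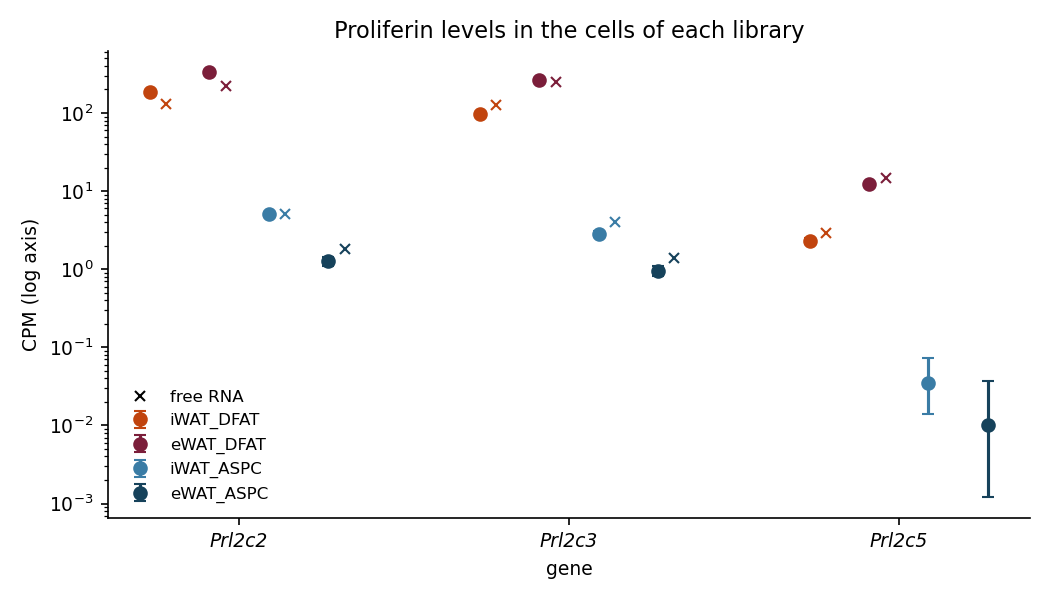
Level of each proliferin gene (CPM, log axis) in the cells of the 4 libraries, as points with 95% counting intervals, and in droplets of 1 to 100 UMIs, which hold free RNA, as crosses (no cross where no UMI was seen). For *Prl2c2* the DFAT libraries sit at 184 and 332 CPM and the ASPC libraries at 5.06 and 1.27.

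Summed proliferins made up 283 CPM in iWAT_DFAT, 606 in eWAT_DFAT, 7.94 in iWAT_ASPC and 2.22 in eWAT_ASPC. DFAT cells thus held 35.6-fold more than ASPCs of iWAT (33.9 to 37.5) and 273-fold more than ASPCs of eWAT (248 to 300). Ratios were counted for genes whose higher library reached 5 CPM, a minimum that a gene may pass through that library alone. Of these, 9.91% were at least 2-fold higher in iWAT_DFAT than in iWAT_ASPC, and 5.18% were lower. *Prl2c2* and *Prl2c3* reached that level and were 36.3-fold and 34.0-fold higher, at ranks 49 and 52 of 10426 genes by ratio. *Prl2c5* stayed under it and was 65.8-fold higher, with a wide interval of 31.6 to 165. In eWAT 6.44% of genes were higher and 6.67% lower in DFAT cells, and all 3 genes reached the level through the DFAT library. *Prl2c5* was 4th of 10298 genes by ratio, *Prl2c3* 11th and *Prl2c2* 13th. These are the ratios the genes were chosen for, and nothing is read from their place beyond the description.

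Between the DFAT libraries, summed proliferins were 2.15-fold higher in eWAT, and the 3 genes differed in how far. *Prl2c2* was 1.81-fold higher, *Prl2c3* 2.71-fold and *Prl2c5* 5.32-fold, so 2 of the 3 passed 2-fold where 3.95% of 10384 genes were at least 2-fold higher in eWAT_DFAT and 8.29% in iWAT_DFAT. Between the ASPC libraries the order was the other way round. Summed proliferins were 3.57-fold higher in iWAT_ASPC than in eWAT_ASPC (3.21 to 3.98), *Prl2c2* 4.00-fold and *Prl2c3* 3.00-fold. *Prl2c2* was the one member to reach 5 CPM there, and of 10135 genes 2.94% were at least 2-fold higher in iWAT_ASPC and 3.94% in eWAT_ASPC. The ratio of *Prl2c5*, 7 UMIs against 2, had an interval of 0.660 to 34.2 that left its direction undetermined.

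The free RNA of each library, read from droplets of 1 to 100 UMIs, held proliferins at levels near those of the cells: 260 CPM in iWAT_DFAT, 492 in eWAT_DFAT, 9.11 in iWAT_ASPC and 3.24 in eWAT_ASPC. The make-up of that RNA was not the make-up of the cells. *Prl2c2* gave 65.0% of the proliferin UMIs in the cells of iWAT_DFAT but 50% (47.7 to 52.3) in its free RNA, and 54.9% against 45.7% (44.1 to 47.3) in eWAT_DFAT. In the ASPC libraries, where free RNA held 65 and 23 proliferin UMIs, the intervals were too wide to tell the shares apart. Some cell barcodes were shared with a DFAT library. Of 523 proliferin-positive cells of iWAT_ASPC, 3 had a barcode that was also a cell of iWAT_DFAT and 3 one of eWAT_DFAT, out of 13 and 14 cells with such a barcode. Of 229 such cells of eWAT_ASPC, 1 and 0 did, out of 20 and 15. Over all cells 7.05% of iWAT_ASPC and 3.40% of eWAT_ASPC were proliferin-positive, and the shared barcodes were too few to set against these shares.

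Cells with a proliferin UMI were common among DFAT cells and rare among ASPCs. To compare libraries of unequal depth, each cell was thinned at random to 5000 UMIs. A UMI of any of the 3 genes was then seen in 35.8% of cells (34.7 to 36.9) in iWAT_DFAT, 49.8% (48.6 to 51.0) in eWAT_DFAT, 2.38% (2.05 to 2.76) in iWAT_ASPC and 0.860% (0.654 to 1.11) in eWAT_ASPC. Without thinning the shares were 53.3%, 69.0%, 7.05% and 3.40%. Taken singly, *Prl2c2* was seen in 29.7% and 42.1% of the thinned cells of iWAT_DFAT and eWAT_DFAT, *Prl2c3* in 19.0% and 32.2%, and *Prl2c5* in 0.590% and 1.95%.

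These shares were set beside what free RNA could give. If 5% of the UMIs in a cell came from free RNA, 6.30% of thinned cells in iWAT_DFAT, 11.6% in eWAT_DFAT, 0.227% in iWAT_ASPC and 0.0810% in eWAT_ASPC would carry a proliferin UMI. Cells with a UMI of at least 3 of 7 endothelial markers were set beside them as another marker group of the same libraries. Such a group is a range of marker detection and not a cell type. Cells that also carried stromal markers were not taken out of it. In eWAT_DFAT, 12.8% (7.86 to 19.2) of 149 such cells had a proliferin UMI after thinning, against 50.9% of 5674 cells with stromal markers and no other list (median depth 11794 and 28424 UMIs). In iWAT_DFAT the share was 8% (0.984 to 26.0) of 25 cells, against 35.7% of 7444 (21612 and 22190 UMIs). Among 66 cells of eWAT_DFAT with at least 3 of 7 mesothelial markers it was higher, 36.4% (24.9 to 49.1). The shares of stromal DFAT cells lay above those of the endothelial-marker cells and above the shares computed for 5% of free RNA, a share that was assumed and not measured. By level the libraries differed, with 559 CPM in the stromal cells and 137 in the endothelial-marker cells of eWAT_DFAT, but 274 (272 to 277) and 362 (316 to 412) in iWAT_DFAT. In the ASPC libraries the endothelial shares, 1.59% of 63 cells and 0.629% of 159, had intervals that held the shares of the stromal cells. This measure therefore did not tell the stromal cells from the endothelial-marker cells there (median depth 25345 and 28258 UMIs, against 16374 and 16407). By level, the stromal cells of iWAT_ASPC held 8.06 CPM (7.66 to 8.47). Its endothelial-marker cells held 1.52 (0.185 to 5.51) from 2 UMIs, and the intervals do not overlap. In that library 10 cells held 16.4% of the proliferin UMIs. The level intervals of the marker groups given here do not cover such clustering of UMIs in cells. In eWAT_ASPC the values were 2.38 (2.15 to 2.61) and 0.605 (0.0733 to 2.19), and the intervals overlap. The 508 mesothelial-marker cells of eWAT_ASPC held 0.537 CPM (0.216 to 1.11) and the 137 pericyte-marker cells of iWAT_ASPC 1.65 (0.713 to 3.25), both below the intervals of the stromal cells. The 84 pericyte-marker cells of eWAT_ASPC held 2.17 CPM (0.873 to 4.475), an interval that overlaps that of its stromal cells.

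Within the DFAT libraries the proliferin UMIs were concentrated in part of the cells. Had every cell held the mean, 71.7% of thinned cells in iWAT_DFAT and 94.4% in eWAT_DFAT would have carried a UMI. The median thinned cell held 0, the cell at the 99th percentile 13 UMIs in iWAT_DFAT and 27 in eWAT_DFAT, and the highest 37 and 70. The top 10% of cells held 63.2% of the proliferin UMIs in iWAT_DFAT and 57.8% in eWAT_DFAT. The variance over the mean was 6.21 and 11.4, and a higher value was found for 34 of 6288 and 28 of 5981 genes at 20 or more CPM. Here a sum of genes is set against single genes. For *Prl2c2* alone 64 and 60 genes had a higher value, and for *Prl2c3* alone 55 and 38. This measure grows with the mean of a gene, so it ranks cell-to-cell spread of UMIs and not of regulation.

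**Figure D2:**
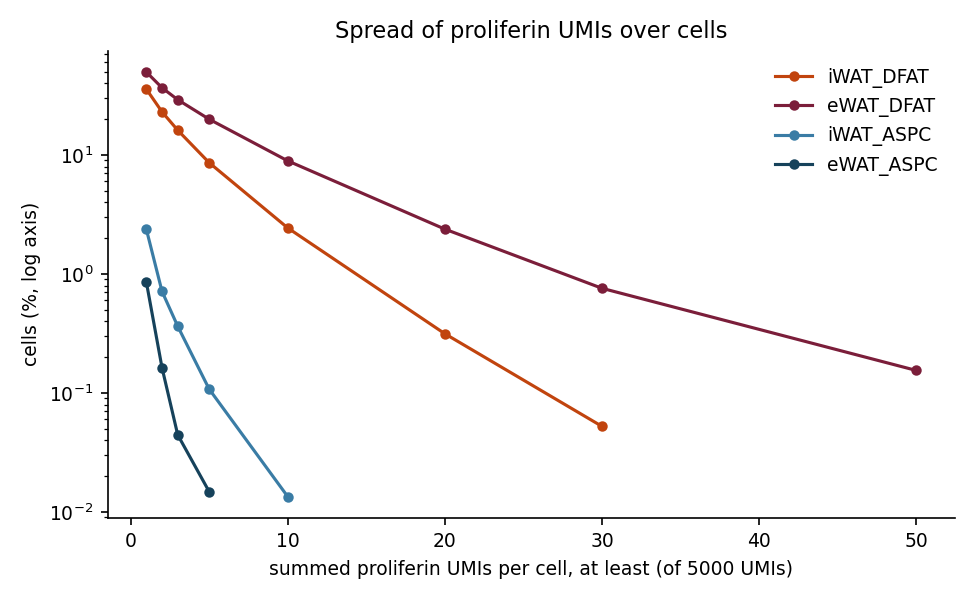
Share of cells (%, log axis) with at least the number of summed proliferin UMIs on the x axis, after thinning every cell to 5000 UMIs, for the 4 libraries. At 10 or more UMIs the DFAT libraries hold 2.44% and 8.93% of cells, while iWAT_ASPC holds 0.0135% and eWAT_ASPC none.

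The genes were seen together more often than the product of their shares gives, though many cells held UMIs of 1 gene alone. *Prl2c2* and *Prl2c3* were both seen in 993 thinned cells of iWAT_DFAT, where the product of their shares gives 431, and in 1593 of eWAT_DFAT, where it gives 878. In the ASPC libraries 24 cells of iWAT held both against a product of 1.29, and 5 of eWAT against 0.145. The correlation of the 2 genes over cells (Pearson, log scale, thinned) was 0.50 over 7629 cells of iWAT_DFAT, 0.62 over 6464 of eWAT_DFAT, 0.29 over 7424 of iWAT_ASPC and 0.18 over 6745 of eWAT_ASPC. The cells of each value share a library and, after thinning, a depth, and the weak values rest on few positive cells. *Prl2c2* was also seen in 73.3% of the 45 thinned cells with *Prl2c5* in iWAT_DFAT and 87.3% of the 126 in eWAT_DFAT, against 29.7% and 42.1% of all cells. At full depth the shares were 92.1% of 165 cells and 93.9% of 397, against 45.3% and 59.3%. Full depth showed all 3 genes in 142 and 362 cells, *Prl2c2* alone in 1072 and 791, *Prl2c3* alone in 599 and 604 and *Prl2c5* alone in 7 and 13. Reads shared between *Prl2c2* and *Prl2c3* could place both genes in 1 cell, and their part in these counts was not tested.

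The make-up of the proliferin UMIs differed with their number in a cell. In cells with 1 to 5 proliferin UMIs at full depth, *Prl2c2* gave 65.4% of them in iWAT_DFAT and 58.6% in eWAT_DFAT, and in cells with 6 to 20 it gave 72.3% and 68.6%. In cells with 21 to 100, which carried 54.9% and 52.7% of all proliferin UMIs, it gave 64.6% and 59.3%. In cells with over 100 it gave 40.9% in both libraries (39.4 to 42.4 and 40.4 to 41.4). *Prl2c3* was the larger part there, with 56.6% and 54.8%, against 34.2% and 40.3% at 1 to 5 UMIs and 27.1% and 30.9% at 6 to 20. *Prl2c5* gave 0.451% and 1.07% at 1 to 5 UMIs, 0.558% and 0.519% at 6 to 20, 0.762% and 1.13% at 21 to 100 and 2.53% and 4.31% above 100. The shares of *Prl2c2* and *Prl2c3* thus did not move one way over the classes. That of *Prl2c5* rose through each class in iWAT_DFAT only, where its intervals overlapped between neighbouring classes up to 100 UMIs. The classes were set by the sum of the same 3 genes, so a cell very high in 1 gene enters the top class through that gene. The highest class held 29 cells of iWAT_DFAT and 217 of eWAT_DFAT, which carried 7.92% and 30.8% of all proliferin UMIs. Median depth also differed between these classes, from 22082 UMIs in the lowest to 35182 in the highest in iWAT_DFAT and from 27460 to 36506 in eWAT_DFAT, and its part in the change was not tested.

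**Figure D3:**
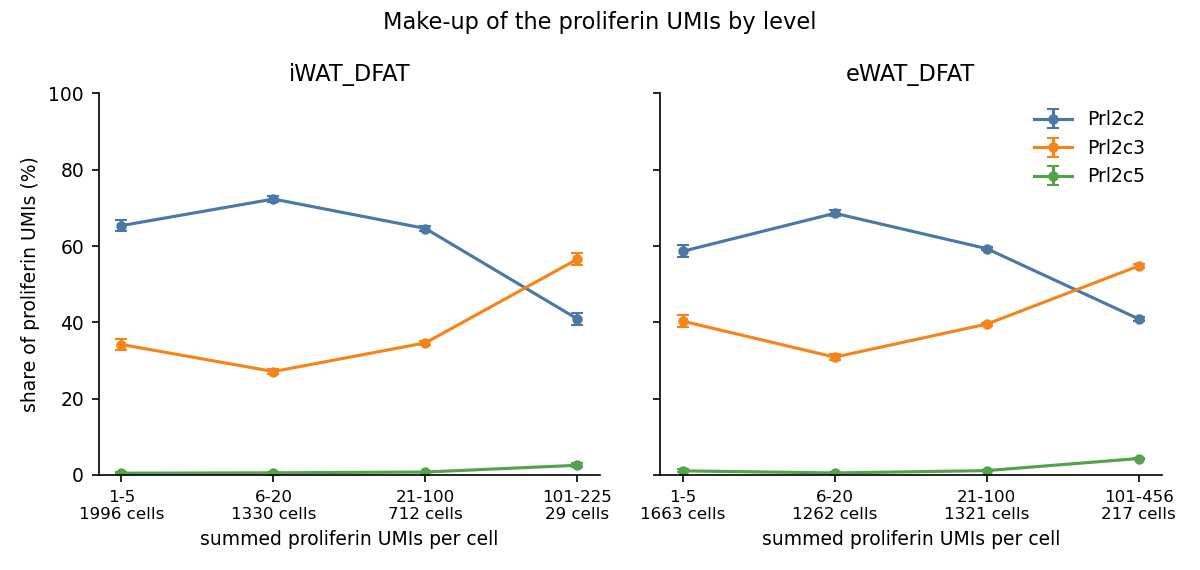
Share of *Prl2c2*, *Prl2c3* and *Prl2c5* in the proliferin UMIs (%) of cells grouped by their number of proliferin UMIs at full depth, with 95% binomial intervals, in iWAT_DFAT and eWAT_DFAT. In both libraries *Prl2c2* leads up to 100 UMIs and *Prl2c3* above, at 56.6% and 54.8%.

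Single cells spread far around these shares. Among cells with at least 20 proliferin UMIs, the share of *Prl2c2* ran from 0% to 100% in both DFAT libraries, with medians of 72.2% over 787 cells of iWAT_DFAT and 60.0% over 1606 of eWAT_DFAT. The variance of the counts was 9.09 and 10.9 times that of a binomial draw with 1 common share. *Prl2c2* gave at least 90% of the proliferin UMIs in 99 cells of iWAT_DFAT and 148 of eWAT_DFAT, and at most 10% in 16 and 49. *Prl2c5* was seen in few cells, and its 10 highest held 44.3% of its UMIs in iWAT_DFAT and 38.0% in eWAT_DFAT, and 1 cell of eWAT_DFAT alone held 178. Of the cells with at least 20 proliferin UMIs, 691 of 787 and 1282 of 1606 had no *Prl2c5* UMI at all.

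Within the DFAT libraries proliferins were higher in cells with adipocyte markers. The list held *Adipoq*, *Plin1*, *Cidec*, *Lep*, *Car3*, *Retn*, *Cfd* and *Plin4*, which code for hormones and lipid droplet or metabolic proteins of mature fat cells. *Lep* had no UMI in the cells of any library, and the 8 genes together stood at 34.0 CPM in iWAT_DFAT and 112 in eWAT_DFAT, against 1.32 and 2.03 in the ASPC libraries. In iWAT_DFAT, cells with none of the 8 held 218 CPM of proliferins, cells with 1 held 432, with 2 held 860 and with 3 held 1250 (1186 to 1317). In eWAT_DFAT the steps were 427, 831, 1742 and 2511 (2453 to 2571). Cells with 4 or more markers, 32 and 159 in number, lay lower again, at 633 and 1909 CPM. A proliferin UMI was seen after thinning in 32.3% (31.1 to 33.4) and 46.3% (44.9 to 47.7) of cells with no marker. With 3 markers the shares were 69.05% and 81.3%. With 4 or more they were 46.9% (29.1 to 65.3) and 52.8% (44.8 to 60.8), and these intervals overlap those of cells with none. Median depth was 21866 UMIs with no marker and 24733 with 3 in iWAT_DFAT, and 26968 and 30024 in eWAT_DFAT. With 4 or more markers it was 23343 and 23245, and the part of depth in the steps was not tested. In iWAT_ASPC, 163 cells with 1 marker held 36.6 CPM (31.6 to 42.2), against 7.12 (6.75 to 7.50) in cells with none.

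**Figure D4:**
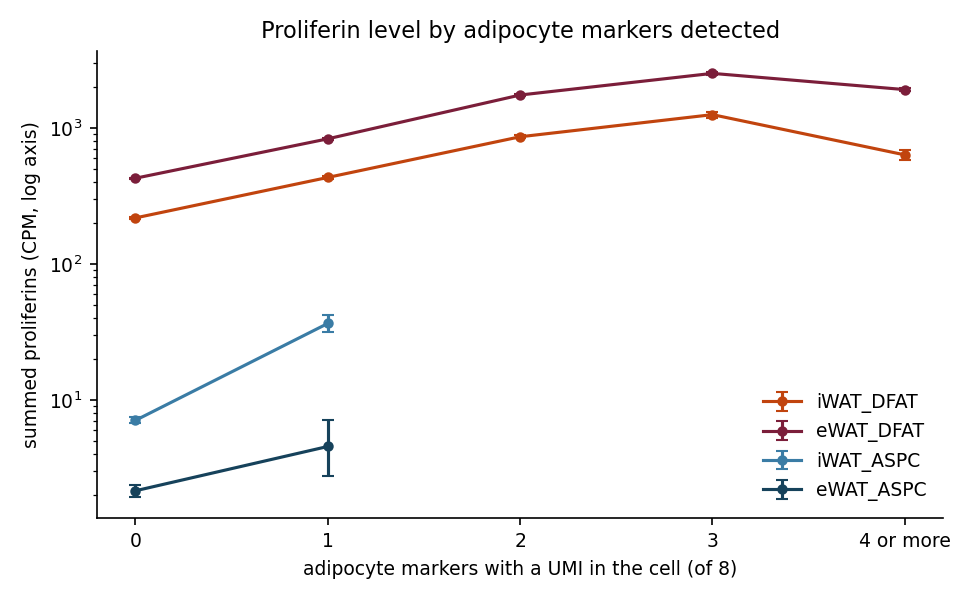
Summed proliferins (CPM, log axis, 95% counting intervals) in cells grouped by the number of adipocyte markers with a UMI (of 8), for groups of at least 20 cells in each library. Both DFAT libraries reach their highest value at 3 markers, 1250 and 2511 CPM.

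Cells with at least 3 adipocyte markers were few, 74 in iWAT_DFAT and 250 in eWAT_DFAT, and they held different parts of the 3 genes. In eWAT_DFAT these 3.87% of cells held 9.19% of the *Prl2c2* UMIs, 15.8% of those of *Prl2c3* and 45.5% of those of *Prl2c5*. In iWAT_DFAT 0.970% of cells held 2.21%, 6.13% and 19.3%. Summed proliferins without these cells stood at 275 CPM in iWAT_DFAT and 548 in eWAT_DFAT. In the cells themselves they stood at 998 and 2159 CPM, beside 274 and 559 in cells with stromal markers and no other list. In the ASPC libraries 3 cells each passed the list, too few to describe.

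The other marker groups of the DFAT libraries lay below these 274 and 559 CPM, with the exception of the endothelial-marker cells of iWAT_DFAT. Cells with at least 3 of 7 pericyte markers, the contractile cells of small vessels, held 75.7 CPM (52.1 to 106) in iWAT_DFAT over 20 cells and 86.2 (75.7 to 97.8) in eWAT_DFAT over 121. Mesothelial markers, of the lining of visceral fat, set apart 66 cells of eWAT_DFAT with 222 CPM. Endothelial-marker cells of eWAT_DFAT held 137 CPM (122 to 152). The 25 endothelial-marker cells of iWAT_DFAT held 362 CPM (316 to 412), above the stromal cells of that library, from 224 UMIs in 24% of the cells. Glial markers set apart 143 cells of iWAT_ASPC with 3.20 CPM, and immune markers at most 25 cells in any library.

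Summed proliferins in cells with cell cycle transcripts went opposite ways in the DFAT libraries. Cells with at least 3 UMIs of 12 S phase genes after thinning held 313 CPM in iWAT_DFAT, cells with at least 3 of 12 G2M genes 293, and cells with no UMI of either list 207. In eWAT_DFAT the order was 535, 498 and 842 CPM. The log2 ratio of S phase cells to cells with neither list was thus 0.59 (0.55 to 0.64) in iWAT_DFAT and -0.65 (-0.68 to -0.63) in eWAT_DFAT. *Prl2c2* and *Prl2c3* shared these directions, with 0.61 and 0.60 in iWAT_DFAT and -0.44 and -0.83 in eWAT_DFAT. *Prl2c5* was also lower in the S phase cells of eWAT_DFAT, with -1.97 (-2.13 to -1.82). In iWAT_DFAT its ratio of -0.31 had an interval (-0.73 to 0.12) that left its direction undetermined. Its G2M ratios were -0.67 (-1.11 to -0.22) in iWAT_DFAT and -2.20 in eWAT_DFAT. These intervals do not cover clustering, and 10 cells held 44.3% and 37.96% of the *Prl2c5* UMIs. By share of thinned cells with a *Prl2c5* UMI, only the G2M cells of eWAT_DFAT stood apart from cells with neither list, 1.399% against 3.281%. The intervals overlapped for S phase cells of eWAT_DFAT, 1.297 to 2.266 against 2.173 to 4.737, and for both groups of iWAT_DFAT. *Prl2c5* was not followed without adipocyte-marker cells, which held 45.5% of its eWAT_DFAT UMIs. The share of thinned cells with a proliferin UMI was alike in the 3 groups of eWAT_DFAT, 49.3%, 48.1% and 49.0%, while in iWAT_DFAT it was 40.7%, 38.4% and 27.6%. Median depth was 26780 UMIs in S phase cells and 18742 in cells with neither list in iWAT_DFAT, and 29626 and 24097 in eWAT_DFAT, and 1921 and 1988 cells were in both cycle groups. Adipocyte-marker cells made up 11.2% of the cells with neither list in eWAT_DFAT and 1.53% of its S phase cells. Without them the log2 ratio there was -0.51, and it was 0.66 in iWAT_DFAT. In the ASPC libraries the S phase cells were also higher, by 1.01 in log2 for iWAT and 1.21 for eWAT, from 141 and 64 UMIs in the cells with neither list.

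The 15 genes whose level over cells was most like that of the proliferins were ranked by the smaller of the Pearson correlations with summed proliferins in the 2 DFAT libraries, over 5642 genes that reached 20 CPM in both. *Spp1*, which codes for the secreted matrix protein osteopontin, had 0.25 in iWAT_DFAT and 0.39 in eWAT_DFAT. *Ftl1*, a ferritin chain that stores iron, had 0.27 and 0.29, and *Nid1*, a basement membrane protein, 0.26 and 0.26. *Plin2*, a lipid droplet coat protein, had 0.24 and 0.33, and the fatty acid carrier gene *Fabp4* 0.22 and 0.30. *Pparg*, the master regulator of fat cell formation, had 0.22 and 0.19. The rest were *Gsta4*, *Nqo1*, *Prdx1*, *Slc7a11*, *Gclm* and *Pgd*, which serve glutathione, peroxide or NADPH metabolism, besides *Ptgs1*, *Cyb5a* and *Negr1*. All 15 lay between 0.19 and 0.39 in the DFAT libraries, where the 99th percentile of the 5642 genes was 0.12 and 0.16. They were picked by these same values, so their place above that percentile follows from the choice. The values share libraries and thinned depth, and no p-value is given. Summed proliferins after thinning had a correlation of 0.17 in iWAT_DFAT and 0.14 in eWAT_DFAT with the log of the depth a cell had before it, and its part in the values was not tested.

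The 10 genes least like the proliferins were led by fibrillar collagens. *Col1a1* had -0.34 in iWAT_DFAT and -0.33 in eWAT_DFAT, *Col1a2* -0.33 and -0.32, and *Col3a1* -0.31 and -0.23. *Fn1*, *Fbn1* and *Lox*, for fibronectin, fibrillin and a collagen cross-linking enzyme, and the proteoglycan gene *Dcn* also stood there, with *Cxcl12*, *Ifitm3* and *C3*. In the ASPC libraries all of these correlations were nearer to 0. The genes were picked by their DFAT values and few ASPCs held a proliferin UMI, so this is not read as particular to DFAT cells. In iWAT_ASPC the 1st and 99th percentiles of the 5642 genes were -0.053 and 0.052. *Pparg*, *Ftl1*, *Fabp4* and *Nid1* lay above the latter, and the other most like genes did not. All least like genes but *Cxcl12* and *C3* lay below the former. The highest of the 15 in iWAT_ASPC was *Pparg* with 0.13, and the 15 ran from -0.01 to 0.04 in eWAT_ASPC, where 0.860% of thinned cells held a proliferin UMI.

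**Figure D5:**
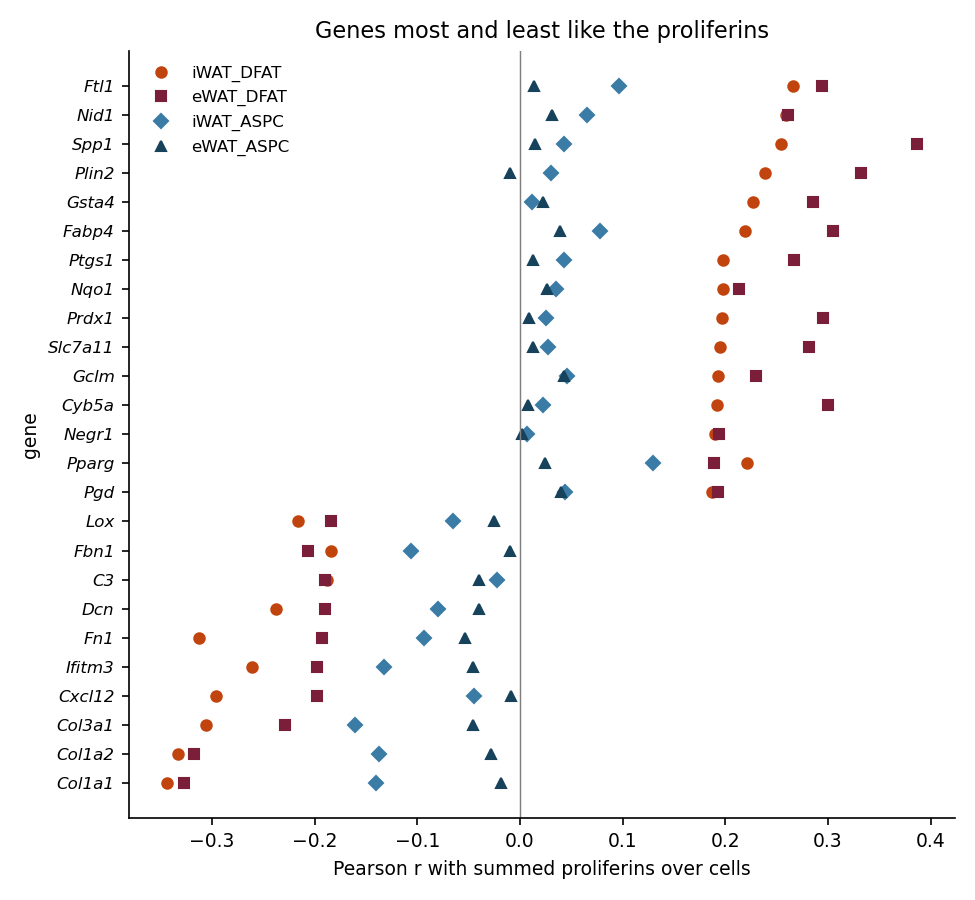
Pearson correlation over cells with summed proliferins (thinned counts, log scale) for the 15 genes most like and the 10 least like them in both DFAT libraries, in each of the 4 libraries. The DFAT points reach 0.39 for *Spp1* and -0.34 for *Col1a1*, while the ASPC points lie closer to 0.

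Of the 15 most like genes, 10 were at least 2-fold higher in iWAT_DFAT than in iWAT_ASPC and 12 in eWAT_DFAT than in eWAT_ASPC, beside 9.91% and 6.44% of all genes. The 15 had to reach 20 CPM in both DFAT libraries and no minimum in ASPCs, which favours genes higher in DFAT cells. The shares of all genes used 5 CPM in the higher library, so no excess is read from these counts. *Spp1* stood at 1950 and 4251 CPM in iWAT_DFAT and eWAT_DFAT and at 182 and 53.0 in the ASPC libraries, in the same order of libraries as the proliferins. *Slc7a11*, the cystine transporter, was at 160 and 253 CPM against 18.8 and 16.3. *Ftl1* was the 1 gene of the 15 that was lower in DFAT cells in each depot, with log2 ratios of -0.22 in iWAT and -0.26 in eWAT.

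The other prolactin family genes were low in all 4 libraries. The 23 of them together gave 1.17 CPM in iWAT_DFAT, 3.30 in eWAT_DFAT, 1.79 in iWAT_ASPC and 0.562 in eWAT_ASPC, and none reached 5 CPM. At least 3 UMIs in some library were found for 18 of the 23. *Prl2c1*, a further copy of the *Prl2c* group, with a transcript 90.6% identical to that of *Prl2c2*, had 16 and 27 UMIs in the DFAT libraries and 0 in each ASPC library. *Prl7d1*, which codes for proliferin-related protein, had 33 and 91 UMIs against 1 and 3. *Prl8a9* had 6 UMIs in iWAT_DFAT but 167 in eWAT_DFAT, against 29 and 9. *Prl3d2*, a placental lactogen gene, was counted at 60, 122, 37 and 13 UMIs. *Prl3a1* had 2 UMIs in iWAT_DFAT against 77 in iWAT_ASPC, and 4 against 11 in eWAT, where the interval of its log2 ratio (-3.48 to 0.39) held 0. *Prl* itself, for prolactin, had 10 UMIs in iWAT_DFAT against 60 in iWAT_ASPC, and 22 against 19 in eWAT. *Prl7b1* had 3, 59, 23 and 17 UMIs, *Prl7a1* 16, 25, 43 and 21, and *Prl7a2* 27, 31, 24 and 1, with the DFAT libraries given before the ASPC libraries and iWAT before eWAT in each. The other 9, *Prl2a1*, *Prl2b1*, *Prl3d1*, *Prl3d3*, *Prl5a1*, *Prl6a1*, *Prl7c1*, *Prl8a6* and *Prl8a8*, had at most 36 UMIs in any library, the count of *Prl3d1* in iWAT_ASPC. The level that 3 UMIs stand for was 0.0151 to 0.0163 CPM in these libraries.

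Genes for receptors and routing were described next. Of 7 genes, 6 reached 5 CPM, and *Gnptab* was the one at least 2-fold higher in both depots, beside 9.91% of all genes in iWAT and 6.44% in eWAT. It codes for the enzyme that makes the mannose 6-phosphate tag, and stood at 59.6 and 44.3 CPM in DFAT cells against 19.3 and 17.5 in ASPCs. *Igf2r* was at 42.1 CPM in iWAT_DFAT, 28.2 in eWAT_DFAT, 50.3 in iWAT_ASPC and 31.2 in eWAT_ASPC. *Igf1r*, for the receptor of insulin-like growth factor, was lower in DFAT cells by log2 ratios of -0.72 and -0.60, and *M6pr*, the other mannose 6-phosphate receptor, by -0.15 and -0.04. *Gnptg*, for a further subunit of the tagging enzyme, had log2 ratios of -0.16 and -0.06. *Prlr*, the prolactin receptor gene, stayed under 5 CPM and was not counted. It had 379 UMIs in eWAT_DFAT against 44 in eWAT_ASPC, a log2 ratio of 3.20 (2.74 to 3.68), and 145 against 157 in iWAT. The median log2 ratio of the 6 genes was -0.16 in iWAT and -0.05 in eWAT, beside 0.09 and 0.07 over all genes counted.

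AP-1 genes, the subunits of the factor named above, were mostly at least 2-fold higher in DFAT cells of iWAT. In eWAT most of them differed by less than 2-fold. Of the 8 of 10 genes that reached 5 CPM, 7 were at least 2-fold higher in iWAT_DFAT than in iWAT_ASPC, with a median log2 ratio of 2.06 beside 0.09 over all genes. The share of all genes so much higher there was 9.91%. In eWAT 1 was higher and 1 lower, beside 6.44% and 6.67% of all genes, with a median of 0.18 beside 0.07. *Fosl1* was the one higher in both depots, at 112 and 101.4 CPM in DFAT cells and 18.4 and 17.1 in ASPCs. *Fos* stood at 493 CPM in iWAT_DFAT and 58.4 in eWAT_DFAT, against 114 and 204 in ASPCs. *Fosb* and *Junb* had log2 ratios of 2.66 and 2.15 in iWAT and of -0.91 and 0.08 in eWAT, and *Jun* of 2.01 and 0.32. *Jun*, *Junb*, *Fos* and *Fosb* were all lower in eWAT_DFAT than in iWAT_DFAT, while *Fosl1* was near equal, with a log2 ratio of iWAT over eWAT of 0.14. A link between the AP-1 transcripts and the proliferins was not tested.

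The upstream stretches of 2 of the genes are shown because a proliferin promoter is a known AP-1 target. The set of promoter stretches used held none for *Prl2c2*, so that gene was not searched. The 250 bases before the start of *Prl2c3* (RefSeq, GRCm38.p6, chr13:12800080-12800329, minus strand) and of *Prl2c5* (chr13:13182466-13182715, plus strand) are shown with the bases that differ between them in capitals:
Prl2c3: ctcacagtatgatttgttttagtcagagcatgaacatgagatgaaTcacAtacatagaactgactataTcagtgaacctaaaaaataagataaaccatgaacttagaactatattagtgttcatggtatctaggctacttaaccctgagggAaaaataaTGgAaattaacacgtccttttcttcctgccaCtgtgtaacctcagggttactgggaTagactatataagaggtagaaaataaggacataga
Prl2c5: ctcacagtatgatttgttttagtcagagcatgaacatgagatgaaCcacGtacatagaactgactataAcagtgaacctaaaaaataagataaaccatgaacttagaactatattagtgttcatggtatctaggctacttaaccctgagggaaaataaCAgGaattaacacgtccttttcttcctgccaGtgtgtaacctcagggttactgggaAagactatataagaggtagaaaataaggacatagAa

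Over 251 aligned positions 241 are identical. The letters TGANTCA, a loose form of the AP-1 core in which the middle base is free, were searched on both strands. They occur once in the *Prl2c3* stretch, with the first base at -209 from the start, where the match reads tgaatca, and not in that of *Prl2c5*. They are found in 6.75% of 32851 promoter stretches of the same length. TATATAA occurs in both, at -30 and -31, and in 3.04% of all stretches, while TGACNNNGC, a core of antioxidant elements, occurs in neither and in 10.2% of all. A match is a run of letters and not a site shown to be bound.

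Growth and angiogenesis factors, the group proliferins belong to by activity, held both directions. Of the 9 of 10 genes that reached 5 CPM, 5 were at least 2-fold higher and 1 lower in iWAT_DFAT than in iWAT_ASPC, and 6 were higher and 1 lower in eWAT. Over all genes 9.91% were higher and 5.18% lower in iWAT, and 6.44% and 6.67% in eWAT. The median log2 ratios were 1.31 and 1.66, beside 0.09 and 0.07 over all genes. *Areg*, for amphiregulin, had the largest log2 ratios of the list, 4.21 in iWAT and 7.56 in eWAT, at 5.22 and 25.7 CPM in DFAT cells. *Ereg*, for epiregulin, stood at 119 and 174 CPM against 16.3 and 16.8. *Hgf*, for hepatocyte growth factor, had ratios of 1.63 and 2.58, and *Angptl4* of 1.35 and 1.21. *Igf1* was lower in DFAT cells of both depots, at 14.99 and 21.7 CPM against 75.6 and 139.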

How the data were processed

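The deposited values are UMI counts per gene and barcode, made by the authors with Cell Ranger on mm10 with introns included. The submitters' notes name version 7.0.0, whereas the file headers name version 4 for iWAT_ASPC and 7.1.0 for the other libraries. Genes of 100000 bases or more took 9.42% of the UMIs of iWAT_ASPC and 9.18% to 11.6% elsewhere. Counts precede cell calling and background removal, which were not repeated here. Depth was 183664704 to 199357348 UMIs in cells, and a 95% interval is exact (Poisson, binomial or conditional binomial). Doublets were kept, since Scrublet's own threshold marked 0.124% to 0.552% of cells. The alternative without doublets removed more, the 334 to 466 cells per library with the highest Scrublet scores. That number was set by an assumed rate of 0.8% per 1000 cells. Pearson correlations used log1p of counts per 10000. Members and gene lists were chosen with earlier results of these data known. Named genes are the members, prolactin family genes with at least 3 UMIs, up to 5 genes per list with the largest ratio in iWAT, and the 15 most and 10 least like genes. *Prlr* was added after its values were seen. Analyses used Python 3.11.15, numpy 2.4.6, scipy 1.17.1, scanpy 1.11.5, biopython 1.88, matplotlib 3.10.9, R 4.3.3 and, for TMM factors, edgeR 4.0.16. Ratios and correlations were tested on simulated data. Alternatives are given in the closing section.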

Additional observations from a re-analysis of the deposited data

Results flagged for a closer look

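Differences between the iWAT and eWAT libraries pointed opposite ways in DFAT cells and ASPCs. The log2 ratio of iWAT over eWAT was -1.10 for summed proliferins, -0.86 for *Prl2c2* and -1.44 for *Prl2c3* in DFAT cells, and 1.84, 2.00 and 1.59 in ASPCs. With 1 library per group the difference was not tested, and the ASPC values rest on 1582 and 439 proliferin UMIs.

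Cells with cell cycle transcripts also differed in direction between the DFAT libraries. The log2 ratio of summed proliferins in S phase cells over cells with neither list was 0.59 in iWAT_DFAT and -0.65 in eWAT_DFAT, and that of G2M cells was 0.50 and -0.76. This difference was not tested either. In both patterns a batch of culture or processing cannot be told apart from the depot.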

How the results depend on the processing

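No ratio of levels changed sign under any alternative run. The ratio of summed proliferins between iWAT_DFAT and iWAT_ASPC (5.15 in log2) moved to 5.07 with either median-of-ratios or TMM factors and 5.05 with the mean of each cell's own CPM. That of eWAT_DFAT over eWAT_ASPC (8.09) moved to 7.92 with TMM factors and 7.95 without adipocyte-marker cells, an alternative chosen after seeing the data. That of iWAT_DFAT over eWAT_DFAT (-1.10) moved to -1.13 without the cells of highest Scrublet score, taken as doublets at the assumed rate. It moved to -1.18 with median-of-ratios factors, -1.18 with each cell's own CPM and -0.995 without adipocyte-marker cells. Shares of positive cells in iWAT_DFAT, eWAT_DFAT, iWAT_ASPC and eWAT_ASPC fell to 20.3%, 28.9%, 1.28% and 0.460% at 2500 UMIs and to 23.02%, 36.7%, 0.714% and 0.163% where 2 UMIs were required. The share of *Prl2c2* as a mean over cells was 69.3%, 62.3% and 66.8% in the first 3, and eWAT_ASPC had too few cells. Its correlation with *Prl2c3* was 0.68, 0.74, 0.44 and 0.36 at full depth, and by Spearman 0.46, 0.58 and 0.24 in the first 3. S phase ratios moved to 0.66 in iWAT_DFAT and -0.51 in eWAT_DFAT without adipocyte-marker cells and to -0.69 in the latter at 5 UMIs, and G2M ratios to 0.56 and -0.58 without those cells. With a minimum of 3 UMIs in place of 5 CPM, prolactin family genes at least 2-fold higher or lower went from 0 of 0 counted to 5 and 6 of 17 in iWAT and to 10 and 1 of 15 in eWAT, receptor genes higher in eWAT from 1 to 2, AP-1 genes lower in iWAT from 0 to 1 and growth factors lower in eWAT from 1 to 2. Over all genes at that minimum 16.0% were higher and 12.0% lower in iWAT, and 20% and 9.59% in eWAT. Of the genes least like the members 6 of 10 were kept at full depth, and 12 of the 15 most like under both alternatives.

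No paired analysis was possible because each group holds 1 library and the labels give no replicate numbers, and the 2 depots were not taken as replicates of each other. Few UMIs limit the values of *Prl2c5* in ASPCs, 7 and 2, and culture-to-culture error was not measured.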
